A study of Xenopus laevis with 10 samples.

Results

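The genes of the vesicle coats and tethers that move proteins between the endoplasmic reticulum (ER) and the Golgi apparatus were examined in the intestine of Xenopus laevis tadpoles raised with or without food. The genes were chosen by their deposited descriptions: coatomer, the Sec proteins of the COPII coat (Sec13, Sec23, Sec24 and Sec31) with any other "protein transport protein Sec", the trafficking protein particle complex (TRAPP), and the transmembrane emp24 domain proteins (p24 or TMED family). The rule found 67 of 33656 genes, with 1 transcript kept per gene: 15 of the COPI coat, 19 of the COPII coat with Sec16, 22 of TRAPP, 10 of the p24 family and sec61a1.L, a subunit of the ER translocation channel that the rule matched by its name. Of these, 63 passed the filter on low counts and were tested. The other 4 (3 described as TRAPPC3 or TRAPPC3-like and the TMED11-like LOC108704138) had between 1 and 4 counts in all libraries together.

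COPII coats form on the ER, where the GTPase Sar1 recruits the inner Sec23 and Sec24 layer that captures cargo and the outer Sec13 and Sec31 cage bends the membrane, at exit sites organised by Sec16. COPI coats, built from coatomer and the GTPase Arf1, return escaped ER proteins and recycle machinery from the Golgi and move material within it. The p24 proteins span the membrane, ride in both kinds of vesicle and help select cargo, and TRAPP complexes activate the Rab GTPases that let arriving vesicles tether. In an intestinal epithelium this route carries brush border enzymes, mucus proteins, peptide hormones and lipoproteins.

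The 10 libraries were bulk RNA sequencing of intestinal tubes, pooled from 20 to 26 tadpoles per stage and raised at 19 °C. Experiment 1 had 1 fed and 1 unfed library at 10 and at 13 days post fertilisation (dpf), and experiment 2 had 1 of each at 10, 13 and 16 dpf, giving 5 fed and 5 unfed libraries. The labels name the libraries by experiment, feeding and age alone. Nothing in them tells separate clutches, tanks or extractions apart, so that the p-values measure the spread between these libraries. Title and stage field disagree on the age of the fed 13 dpf and the unfed 10 dpf library of experiment 1. The titles were followed, because the column names of the count tables carry the same ages. Gene totals, with 1 transcript counted per gene, ran from 6996672 to 9931261 per library. On the first principal component of all genes (52.2% of the variance) all fed libraries lay below 0 and all unfed ones above. The sequencing covers whole tubes, so a lower level may mean fewer cells of a type or less RNA per cell, and these cannot be told apart.

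Levels are given in CPM, the read count as a share of the library's total after TMM scaling, and levels of different genes are set side by side only as CPM per kilobase of transcript. Values for a group are listed in a fixed order: experiment 1 at 10 and 13 dpf, then experiment 2 at 10, 13 and 16 dpf. A gene is called changed when the Benjamini-Hochberg adjusted p of edgeR's quasi-likelihood test, over all 23787 genes tested and with experiment and age as terms, was under 0.05. Differences are log2 fold changes of fed over unfed with their standard error (SE).

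Most of the vesicle transport genes were higher with food. Over all ages 37 of the 63 tested members were called higher and 4 lower, where 24.1% of all genes tested were called higher and 24.7% lower. The median log2 fold change of the members was 0.51, against -0.04 over all genes tested, and 52 of the 63 were above 0. Summed over all members, the level per length was 1384, 1352, 1499, 1445 and 1326 CPM per kilobase in the fed libraries and 1082, 980.3, 996, 977 and 958 in the unfed ones. Every fed library lay above every unfed library in this sum, and the ratio of the means was 1.40. Short and abundant transcripts weigh most in such a sum, and how often sums of other genes separate was not counted. By class, the ratio of the means of the summed levels was 1.69 for the p24 family, 1.69 for the COPII coat with Sec16, 1.38 for the COPI coat, 1.22 for TRAPP and 1.08 for sec61a1.L. The classes were not tested against each other. Taken alone, experiment 1 (2 ages) gave 10 of 62 tested members called higher and 0 lower (median 0.41), where 9.39% and 7.71% of all genes tested were called. Experiment 2 (3 ages) gave 32 of 63 and 4 (median 0.55), against 21.7% and 19.6%. In experiment 1 alone edgeR called 0 of 15 COPI members, and 3 had an unadjusted p under 0.05.

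**Figure D1:**
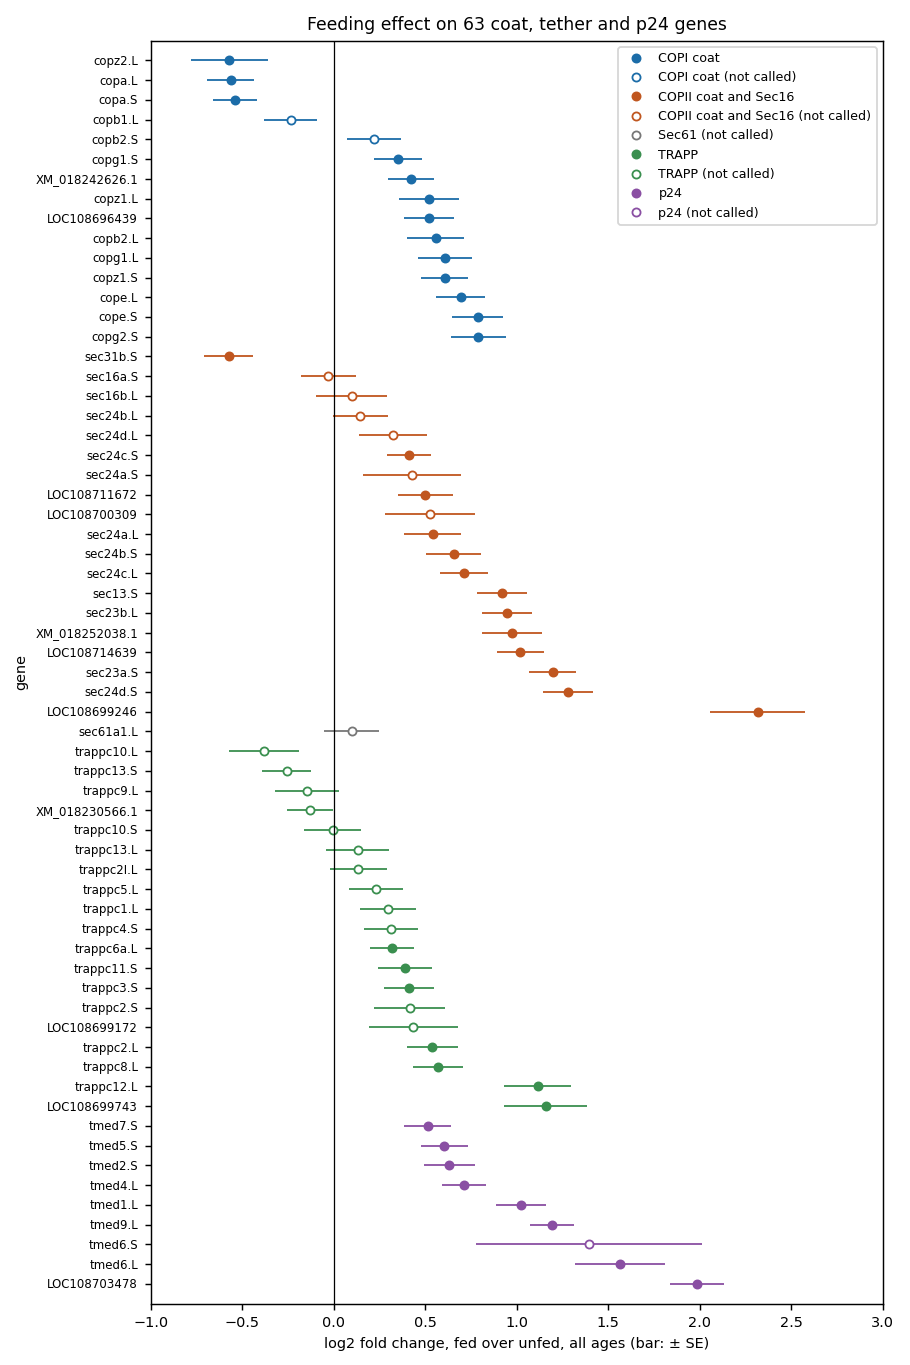
Log2 fold change of fed over unfed over all ages (x axis) for each of the 63 tested genes (y axis), coloured by class. Bars are the SE, filled points were called at an adjusted p under 0.05 and open points were not. Filled points lie to the right of 0 except for copz2.L, copa.L, copa.S and sec31b.S.

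The COPI coat was split by subunit. Of 15 members, 10 were called higher (66.7%) and 3 lower (20%), where 24.1% of all genes tested were called higher and 24.7% lower. The share called lower was thus not above that of all genes. The median log2 fold change was 0.52, and the count of 10 became 6 without the unfed 13 dpf library of experiment 2. The higher ones held every measured copy of the gamma, epsilon and delta subunits and of zeta-1, with the .L copy of beta prime. Both copies of the alpha subunit and the zeta-2 gene were the 3 lower ones, and the beta subunit copb1.L, at -0.24 (adjusted p = 0.195), and the .S copy of beta prime, at 0.22 (adjusted p = 0.243), were not called. The names of the beta prime copies follow the RefSeq table, and the gene named copb2.S there is described as the L homeolog in the deposited tables, so which copy is which is uncertain.

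Epsilon, a small subunit that steadies alpha within the cage, rose in both copies. For cope.S the fed libraries had 91.0, 83.7, 86.2, 97.2 and 80.9 CPM and the unfed ones 63.5, 46.2, 44.9, 53.6 and 46.4 CPM. The groups did not overlap, and the highest unfed value was that of experiment 1 at 10 dpf. The log2 fold change was 0.79 (SE 0.14, adjusted p = 0.000865), a 1.73-fold difference. For cope.L, 108, 111, 112, 111 and 102 CPM with food stood against 84.8, 66.0, 64.0, 65.0 and 58.3 CPM without, again with no overlap. Its log2 fold change was 0.69 (SE 0.13, adjusted p = 0.00133).

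The gamma subunit, part of the inner layer that resembles a clathrin adaptor, is encoded by the abundant copg1 genes and by copg2. The fed libraries had 21.8, 28.3, 36.5, 26.9 and 24.4 CPM of copg2.S and the unfed ones 16.99, 13.1, 16.3, 15.8 and 17.3 CPM. All 5 fed values were above all 5 unfed values, and the difference was 0.79 (SE 0.15, adjusted p = 0.00131). The copies of copg1 differed less, by 0.61 for copg1.L (SE 0.15, adjusted p = 0.00554) and by 0.35 for copg1.S (SE 0.13, adjusted p = 0.0442), both without overlap. The call of copg1.S was near the threshold, and the gene was not called at 10 dpf (adjusted p = 0.41) or at 13 dpf (0.211). Per length, copg2 made up 9.34% ± 1.22 (SD, n = 5) of gamma transcripts in fed and 7.68% ± 0.96 in unfed libraries, with overlapping ranges.

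Zeta-1, the smallest subunit of the inner layer, was the COPI member with the highest level per length. Of copz1.L the fed libraries held 128, 84.4, 124, 153 and 124 CPM and the unfed ones 91.3, 82.9, 81.1, 93.0 and 76.6 CPM. The fed library of experiment 1 at 13 dpf lay within the unfed range, and the other 4 lay above it. The difference was 0.52 (SE 0.16, adjusted p = 0.0204), and it was not called when the fed 10 dpf library of experiment 1, the fed 13 or 16 dpf library of experiment 2 or any unfed library of experiment 2 was left out (adjusted p from 0.0503 to 0.0935). The .S copy, with 78.5, 60.5, 71.1, 71.4 and 65.5 CPM against 52.3, 50.6, 42.6, 44.0 and 39.3 CPM, did not overlap and rose by 0.61 (SE 0.13, adjusted p = 0.00253). The delta gene LOC108696439 rose by 0.52 (SE 0.14, adjusted p = 0.00847), and a short delta-like transcript of 521 bases, which may share reads with it, had 0.42 (SE 0.12, adjusted p = 0.0153).

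Alpha, the cage subunit that also reads the retrieval signal of ER membrane proteins, fell in both copies. For copa.L the fed libraries had 41.4, 32.0, 58.7, 53.3 and 58.2 CPM and the unfed ones 53.9, 61.3, 76.5, 82.4 and 82.6 CPM. Levels were lower in experiment 1 in both feeding states, so the groups overlapped, but the fed library was below the unfed library of the same experiment and age in 5 of 5 pairs. The difference was -0.56 (SE 0.13, adjusted p = 0.00392). For copa.S, 38.3, 33.3, 45.8, 36.3 and 49.7 CPM stood against 47.7, 51.8, 66.6, 60.4 and 68.8 CPM, lower in 5 of 5 pairs, and the difference was -0.54 (SE 0.12, adjusted p = 0.00362). The zeta-2 gene copz2.L, described in the deposited tables as zeta-1-like, was the COPI member with the lowest level per length. It had 3.99, 2.82, 3.01, 4.56 and 2.74 CPM in the fed and 3.94, 4.58, 5.17, 6.24 and 5.72 CPM in the unfed libraries, lower in 4 of 5 pairs. Its difference of -0.57 (SE 0.21, adjusted p = 0.0409) was not called by DESeq2 (adjusted p = 0.094), without the experiment term (0.0617), or when 1 library was left out in 7 of 10 cases (adjusted p from 0.0626 to 0.131). As a share of zeta transcripts per length, copz2.L was 1.94% ± 0.281 (SD, n = 5) with food and 4.21% ± 0.907 without, and the ranges (1.59% to 2.21% and 2.95% to 5.20%) did not overlap. The rest of the sum, zeta-1, was at 162 ± 24.5 CPM per kilobase with food and 110 ± 9.28 without. The share thus also holds the rise of zeta-1, and the CPM of copz2.L itself overlapped between the groups. How often such shares separate over all genes was not counted.

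The opposite directions within coatomer can be seen by setting each subunit against alpha in the same library, a description that was chosen after the values were seen and was not tested. Per length, epsilon was present at 5.50 to 9.63 times the level of alpha in the fed and 2.24 to 4.72 times in the unfed libraries. The ratio of gamma to alpha was 3.18 to 5.98 with food and 1.57 to 2.93 without. For zeta the ratio was 6.01 to 8.95 with food and 2.72 to 4.92 without. For delta, with LOC108696439 alone and without the short delta-like transcript, it was 2.23 to 4.65 and 1.24 to 2.22, almost touching. Beta, with copb1.L alone, gave 0.439 to 0.602 and 0.375 to 0.428, and in these 5 subunits every fed library lay above every unfed one. Beta did not rise itself, with copb1.L at -0.24 and not called, and its ratio was higher because alpha fell more. All these ratios share alpha as the denominator, so their separations are not independent of each other or of the fall of alpha. How often such ratios separate over all genes was not counted. The ranges of beta prime overlapped, at 3.73 to 7.59 with food and 1.83 to 3.83 without. Alpha itself was at 22.3 ± 4.39 CPM per kilobase (SD, n = 5) with food and 32.5 ± 5.41 without. The alpha transcripts are among the longer ones of the coat and the epsilon and zeta transcripts among the shorter ones. With a trend on transcript length removed from each library, copa.L remained lower at -0.39 (adjusted p = 0.0301) and cope.S higher at 0.44 (adjusted p = 0.0143), while copz1.L (0.18, adjusted p = 0.32) and copz1.S (0.25, adjusted p = 0.084) were no longer called, and the median of the COPI members was 0.25.

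**Figure D2:**
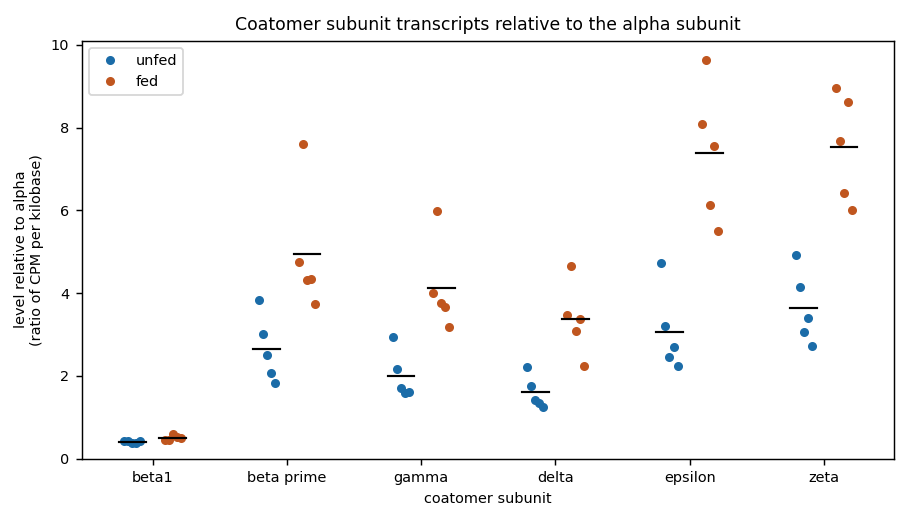
Level of each coatomer subunit relative to the alpha subunit, as the ratio of CPM per kilobase (y axis), in the 5 unfed and 5 fed libraries (points), with the mean of each group as a line. Levels were summed over the member copies of a subunit, but beta is copb1.L alone and delta is LOC108696439 alone. Fed points lie above unfed points for beta, gamma, delta, epsilon and zeta, and overlap slightly for beta prime (lowest fed 3.73, highest unfed 3.83).

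The COPII coat rose in its inner and outer layers. Of 19 members with Sec16, 12 were called higher and 1 lower, where 24.1% of all genes tested were called higher and 24.7% lower. The median log2 fold change was 0.54, and 10 members had every fed library above every unfed one. Over all genes tested, 15% showed such a separation with the fed libraries above and 13.6% with them below.

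Sec23, the inner coat protein that makes Sar1 hydrolyse GTP, had the most abundant COPII member per length. For sec23a.S the fed libraries had 82.0, 92.5, 111, 97.3 and 121 CPM and the unfed ones 42.5, 34.9, 50.6, 41.5 and 50.7 CPM. The lowest fed value was well above the highest unfed value, and the log2 fold change was 1.2 (SE 0.13, adjusted p = 4.00e-05), a 2.29-fold difference. The paralog sec23b.L had 62.6, 74.1, 112, 78.8 and 88.4 CPM with food and 34.4, 34.4, 49.8, 49.8 and 48.4 CPM without. It was also free of overlap, at 0.95 (SE 0.14, adjusted p = 0.000236). Another gene described as Sec23A-like, LOC108699246, was scarce and showed the largest difference of the 63 tested members: 3.24, 3.43, 4.22, 3.75 and 3.96 CPM with food and 0.864, 0.426, 1.09, 0.567 and 0.789 CPM without. Its log2 fold change was 2.32 (SE 0.26, adjusted p = 5.30e-05). The fed libraries held 26 to 35 counts of it and the unfed ones 4 to 9, under the filter's minimum of 10. LOC108699246 thus passed the filter through the fed libraries alone, which favours its rank among the members. A further gene described as Sec23A, LOC108700309, had the lowest level per length of the COPII members, between 1.06 and 3.13 CPM, and was not called (0.53, SE 0.25, adjusted p = 0.0963). Reads of near-identical copies of sec23a could be shared among these genes, so the split between them is uncertain.

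Sec24 is the cargo-binding partner of Sec23, and its 4 paralogs prefer different sorting signals in mammals. The .S copy of sec24d had 26.2, 27.6, 32.5, 20.5 and 20.0 CPM in the fed libraries and 12.9, 9.79, 11.7, 10.1 and 7.89 CPM in the unfed ones. The groups were far apart, and the difference was 1.28 (SE 0.14, adjusted p = 4.23e-05). Of the other 7 Sec24 genes, sec24c.L (0.71), sec24b.S (0.65), sec24a.L (0.54) and sec24c.S (0.41) were called higher, with adjusted p from 0.0011 to 0.0143, and sec24a.S, sec24b.L and sec24d.L were not called. Per length, sec24c held the greatest share of Sec24 transcripts, 40.2% ± 1.64 (SD, n = 5) in fed and 38.9% ± 1.74 in unfed libraries. The shares of sec24a (23.9% ± 3.31 and 24.3% ± 5.77), sec24b (11.1% ± 1.45 and 12.8% ± 1.39) and sec24d (24.7% ± 1.53 and 23.99% ± 7.68) had overlapping ranges too. The sec24d share in unfed libraries was the most scattered, from 14.6% at 16 dpf in experiment 2 to 34.6% at 10 dpf in experiment 1. The deposited descriptions of sec24c.S and sec24d.L name the other paralog (Sec24D and Sec24C), and the names here follow the RefSeq table.

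Sec13, which forms the outer cage with Sec31 and also sits in the nuclear pore, was represented by 2 genes. The gene LOC108714639, described as a SEC13 homolog, had 21.2, 21.7, 32.4, 30.2 and 26.8 CPM with food and 10.6, 10.4, 12.8, 15.5 and 16.0 CPM without. It rose by 1.02 (SE 0.13, adjusted p = 0.000102). For sec13.S the fed libraries held 45.2, 58.0, 68.5, 61.9 and 48.8 CPM and the unfed ones between 28.6 and 30.7 CPM, a narrow range, with a difference of 0.92 (SE 0.14, adjusted p = 0.000291). In neither Sec13 gene did the groups overlap.

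Sec31, the other cage protein, moved in both directions. The Sec31A-like LOC108711672 was called higher at 0.50 (SE 0.15, adjusted p = 0.0168), and a transcript described as sec31-like with no gene name in the RefSeq table (XM_018252038.1) was higher at 0.97 (SE 0.17, adjusted p = 0.000655). The .S copy of sec31b was the COPII member called lower. It had 13.1, 11.6, 18.4, 13.3 and 14.0 CPM in the fed and 17.8, 18.8, 23.8, 19.5 and 24.7 CPM in the unfed libraries. The fed 10 dpf library of experiment 2 reached above the lowest unfed library, but the fed library was the lower of the 2 in 5 of 5 pairs, and the difference was -0.57 (SE 0.13, adjusted p = 0.00434). The exit site scaffold Sec16 did not change by this test: sec16a.S was at -0.03 (SE 0.15, adjusted p = 0.887) and sec16b.L at 0.10 (SE 0.19, adjusted p = 0.705), with values of sec16b.L from 15.8 to 54.8 CPM in unfed libraries alone. The translocation channel subunit sec61a1.L, through which new proteins enter the ER, had 116, 107, 174, 139 and 184 CPM with food and 92.4, 126, 144, 148 and 158 CPM without. The groups overlapped throughout, and it was not called (0.10, SE 0.15, adjusted p = 0.616).

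**Figure D3:**
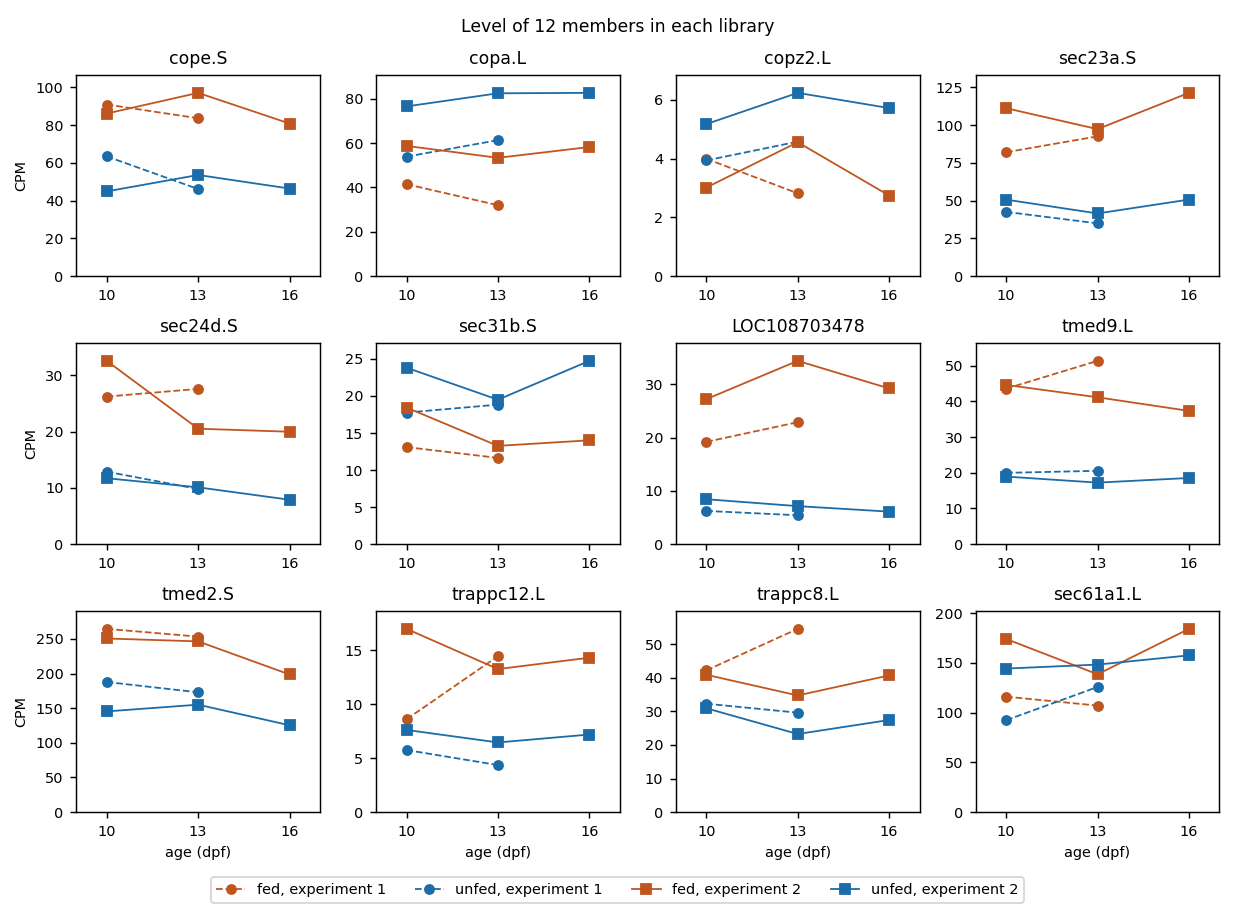
Level of 12 members in CPM (y axis, from 0, with its own scale in each panel) by age in dpf (x axis). Colour gives the feeding state, circles with dashed lines are experiment 1 and squares with solid lines experiment 2, with 1 library per point. Fed points lie above unfed points at every age for sec23a.S, sec24d.S, LOC108703478 and tmed9.L, below the unfed point of the same experiment and age for copa.L and sec31b.S, and mixed for sec61a1.L.

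The p24 family had the highest share of members called. Of 10 members 9 were tested, and 8 of these were called higher, where 24.1% of all genes tested were. Called lower were 0 (0 also by DESeq2 and 0 at an unadjusted p under 0.05), against 24.7% of all genes, and the median log2 fold change was 1.02. With the transcript length trend removed the median was 0.68. All 8 called members had every fed library above every unfed one, where 15% of all genes tested did. The calls rest on the same libraries, which makes such a separation likely.

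LOC108703478, described as TMED1, had the smallest adjusted p of all members. Its level was 19.2, 22.9, 27.2, 34.4 and 29.3 CPM with food and 6.24, 5.43, 8.44, 7.14 and 6.11 CPM without. The difference was 1.98 (SE 0.15, adjusted p = 4.98e-06), or 3.95-fold. The gene named tmed1.L had 17.3, 20.3, 23.9, 20.2 and 16.0 CPM against 8.45, 8.30, 10.8, 11.2 and 9.37 CPM, and rose by 1.02 (SE 0.14, adjusted p = 0.000138). Tmed9 is a p24 protein of the early secretory pathway, and tmed9.L had 43.5, 51.3, 44.6, 41.1 and 37.3 CPM in the fed libraries and 20.0, 20.5, 18.9, 17.2 and 18.5 CPM in the unfed ones. Both groups were tight, and the log2 fold change was 1.19 (SE 0.12, adjusted p = 3.04e-05).

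The rest of the family spans scarce and abundant genes. The scarce tmed6.L had 3.99, 3.80, 3.98, 4.96 and 3.96 CPM with food and 1.82, 1.70, 0.817, 1.47 and 1.08 CPM without, a rise of 1.57 (SE 0.25, adjusted p = 0.000411). Its homeolog tmed6.S, between 0.0986 and 1.98 CPM, was the 1 tested p24 member not called (1.39, SE 0.62, adjusted p = 0.0807). It passed the filter only through its fed 16 dpf library, with 13 counts. At the other end, tmed2.S, which forms hetero-oligomers with other p24 proteins and is required in mice, had the highest level per length of the family, 82.9 CPM per kilobase over all libraries. It held 265, 253, 251, 246 and 199 CPM in the fed and 188, 173, 145, 155 and 125 CPM in the unfed libraries, falling off at 16 dpf in both states, with a difference of 0.63 (SE 0.14, adjusted p = 0.0033). The remaining members tmed4.L (0.71), tmed5.S (0.60) and tmed7.S (0.51) had adjusted p from 0.000662 to 0.00661. With the length trend removed tmed5.S was at 0.31 and not called (adjusted p = 0.0625).

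TRAPP changed least often among the 4 larger classes as counted, which is a description and not a test between classes. Of 22 members 19 were tested, 7 were called higher (36.8%) and 0 lower (0 at an unadjusted p under 0.05), and the median was 0.31. Over all genes tested 24.1% were called higher and 24.7% lower. With the transcript length trend removed 3 were called and the median was 0.10, and 4 were called without the experiment term. The count was also 4 without the unfed 13 dpf library of either experiment, or without the fed 10 dpf, fed 13 dpf or unfed 10 dpf library of experiment 2. The share of all genes called in these other fits is not given.

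Among subunits particular to the larger TRAPP complexes in mammals, trappc12.L and trappc8.L rose. The values of trappc12.L were 8.61, 14.5, 16.997, 13.3 and 14.3 CPM with food and 5.76, 4.36, 7.62, 6.46 and 7.20 CPM without. The groups did not overlap, though the fed 10 dpf library of experiment 1 was close to the highest unfed one, and the log2 fold change was 1.11 (SE 0.18, adjusted p = 0.000536). For trappc8.L, 42.2, 54.5, 40.9, 34.7 and 40.7 CPM stood above 32.3, 29.6, 30.9, 23.2 and 27.4 CPM, a rise of 0.57 (SE 0.14, adjusted p = 0.00484). Trappc11.S was called higher near the threshold, at 0.39 (SE 0.15, adjusted p = 0.0484). It was not called by DESeq2, without the filter on low counts or without the experiment term. A second TRAPPC11-like transcript was at -0.13 (adjusted p = 0.417). The subunits trappc9.L, trappc10.L, trappc10.S, trappc13.L and trappc13.S lay between -0.38 and 0.13, with adjusted p from 0.116 to 0.979.

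The core subunits assemble the Rab-activating centre. Among them LOC108699743, described as TRAPPC6B-like, had 14.0, 21.4, 11.2, 10.6 and 5.64 CPM in fed and 7.87, 4.90, 5.72, 4.19 and 4.34 CPM in unfed libraries. The fed values were spread widely, and the lowest, at 16 dpf, lay within the unfed range. Its log2 fold change was 1.16 (SE 0.22, adjusted p = 0.00147). Another gene described as TRAPPC6B, LOC108699172, was not called (0.43, SE 0.24, adjusted p = 0.158). Trappc2.L, the gene for sedlin, had 16.7, 16.4, 18.2, 19.3 and 12.3 CPM against 12.2, 11.07, 11.03, 10.997 and 11.3 CPM, just free of overlap, and rose by 0.54 (SE 0.14, adjusted p = 0.00807). With the length trend removed it was at 0.14 and not called (adjusted p = 0.408). Also not called were trappc2.S (0.42), trappc4.S (0.31), trappc5.L (0.23) and trappc2l.L (0.13), with adjusted p from 0.0956 to 0.499.

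Trappc3.S and trappc6a.L were called with adjusted p near the threshold. For trappc3.S the fed libraries had 39.7, 48.4, 36.3, 33.5 and 32.6 CPM and the unfed ones 37.3, 26.4, 25.2, 26.4 and 27.8 CPM, and the unfed 10 dpf library of experiment 1 overlapped the fed range. The difference was 0.41 (SE 0.14, adjusted p = 0.0263), and without single libraries of either state it was not called in 5 cases (adjusted p from 0.0561 to 0.0968). It was also not called without the experiment term (adjusted p = 0.0666), with the stage field as age (0.0509) or with the length trend removed, where it was at 0.099 (0.565). Trappc6a.L, described as TRAPPC6B, had 27.8, 26.7, 24.5, 28.4 and 26.4 CPM against 24.5, 24.2, 19.9, 19.4 and 19.7 CPM, with a difference of 0.32 (SE 0.12, adjusted p = 0.0451). It was not called by DESeq2 (adjusted p = 0.0916) or in 8 of the 10 fits with 1 library left out (adjusted p from 0.066 to 0.153). The core member with the highest TRAPP level per length, trappc1.L at 37.0 CPM per kilobase, had 46.9, 31.4, 42.2, 55.1 and 38.5 CPM with food and 36.2, 33.3, 32.9, 35.1 and 35.8 CPM without, and was not called (0.29, SE 0.15, adjusted p = 0.129).

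By age, feeding differences were called at the first stage sampled, mostly in COPII and p24 genes. At 10 dpf 18 members were called higher and 0 lower, against 11.1% and 9.16% of all genes tested, with a median of 0.46 (26 members had an unadjusted p under 0.05, and DESeq2 called 10). At 10 dpf 6 were called without the experiment term and 11 with the stage field as age. The 18 comprised 9 of 19 tested COPII, 6 of 9 p24 and 2 of 19 TRAPP genes, and copg2.S, 1 of 15 of the COPI coat. For COPI and TRAPP these shares were not above the 11.1% of all genes, with medians of 0.44 and 0.24. At 13 dpf 24 were called higher and 2 lower, against 16.6% and 14.3%, with a median of 0.59: 9 COPII, 6 p24, 5 TRAPP and 4 COPI genes were higher, and copa.L (-0.78, SE 0.21, adjusted p = 0.0172) and copa.S (-0.68, SE 0.21, adjusted p = 0.0291) were lower. LOC108703478 was at 1.65 at 10 dpf and 2.17 at 13 dpf, sec23a.S at 1.04 and 1.32, and sec24d.S at 1.26 and 1.27. DESeq2 called 16 higher and 1 lower (copa.L) at 13 dpf, and without the experiment term or with the stage field as age 10 were higher and 0 lower, with neither copa gene called (adjusted p from 0.0712 to 0.15). These counts rest on 2 libraries per group: without the fed or the unfed 10 dpf library of experiment 2 the 10 dpf count was 1, without the unfed 10 dpf library of experiment 1 it was 5, and without either unfed 13 dpf library the 13 dpf count was 8 higher and 0 lower. The count of 2 lower at 13 dpf became 1 without the fed 13 dpf library of either experiment or the unfed 10 dpf library of experiment 1. The share of all genes called is not given for these other settings, so their counts have no background beside them. Both ages were fitted with a shared spread, and the age comparisons share libraries with each other.

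No member was called for a change of the feeding difference from 10 to 13 dpf (0 of 63, with 0% of all genes called in either direction). DESeq2 also gave 0, and 2 members had an unadjusted p under 0.05, named here after their values were seen: trappc2.S at 1.06 (SE 0.34, adjusted p = 0.79) and LOC108699743 at 0.87 (SE 0.39, adjusted p = 0.942). Between 13 and 10 dpf 0 members were called in unfed tadpoles, where 0.00841% of all genes were called higher and 0.0042% lower, and 0 in fed ones, where 0% were called. The unadjusted p was under 0.05 for 2 members without food (trappc2.S at -0.69 and sec24d.L at -0.60) and 1 with food (sec24a.L at -0.60), and DESeq2 called 0 in each. The feeding difference did not differ by test between the experiments for any member (0 called by edgeR and by DESeq2, 0% of all genes), with an unadjusted p under 0.05 for sec24d.L and trappc10.L.

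At 16 dpf there was 1 fed and 1 unfed library and no test. Of the 63 members 24 were at least 1.5-fold higher in the fed library and 3 at least 1.5-fold lower, where 22.5% and 26.7% of all genes passed the same folds. The median log2 ratio was 0.36. The 3 lower ones were copz2.L (-0.999), sec31b.S (-0.81) and trappc10.L (-0.59), and LOC108703478 was at 2.22 and tmed9.L at 1.001.

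**Figure D4:**
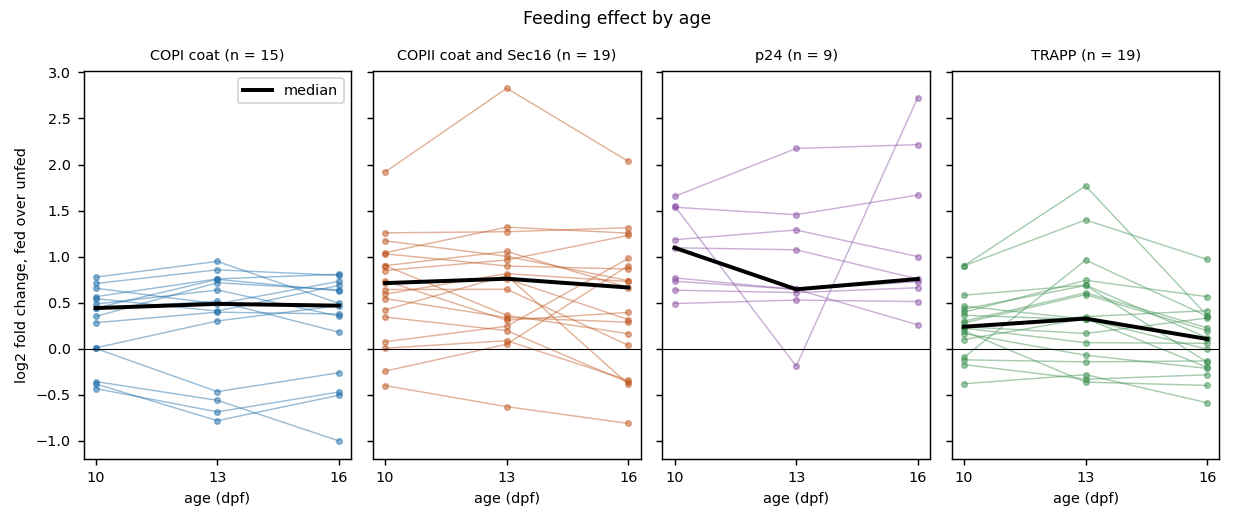
Log2 fold change of fed over unfed (y axis) at 10, 13 and 16 dpf (x axis) for each tested member of 4 classes (thin lines), with the class median in black. At 16 dpf each value compares 1 fed with 1 unfed library. The medians are above 0 at each age in each class, at 0.24 for TRAPP and 0.71 for the COPII coat at 10 dpf.

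Xenopus laevis carries homeologous copies of many genes, labelled .L and .S after the longer and shorter chromosome of a pair. Whether the copies answered food differently was tested with limma on the log2 ratio of the .L to the .S copy, over 5375 pairs, of which 27.1% were called. Of 25 pairs with at least 1 member, 6 were called, which is close to that background. For sec31b the .L copy had 29.2, 29.8, 48.9, 32.3 and 40.2 CPM with food and 26.9, 26.6, 35.1, 27.5 and 35.9 CPM without, not called by itself (0.24, adjusted p = 0.157), while the .S copy fell. The log2 ratio of .L to .S was 1.14 to 1.51 in the fed and 0.49 to 0.59 in the unfed libraries, and its change was 0.80 (SE 0.12, adjusted p = 0.000491). For sec24d the .S copy rose. The .L copy, with 28.4, 24.4, 32.5, 21.6 and 26.5 CPM against 36.1, 26.0, 23.6, 13.8 and 13.3 CPM, was not called, and the ratio changed by -0.92 (SE 0.18, adjusted p = 0.003). The log2 ratio of .L to .S was -0.18 to 0.41 in the fed and 0.45 to 1.47 in the unfed libraries. This pair follows the RefSeq names, and the deposited description of sec24d.L names Sec24C, so the pairing is uncertain. The ratio of trappc8 changed by 0.57 (SE 0.12, adjusted p = 0.00529), with trappc8.S at 0.00. Smaller changes of the ratio were called for copb2 (0.33), tmed7 (0.38) and sec24b (-0.50), with adjusted p from 0.0193 to 0.0384 (the sign for copb2 depends on the uncertain naming of its copies), and these 3 were no longer called without the fed or the unfed 10 dpf library of experiment 2 or either unfed 13 dpf library. The copies of copa (ratio change -0.03, SE 0.11), tmed2 (0.04, SE 0.08) and cope (-0.10, SE 0.10) were not called.

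**Figure D5:**
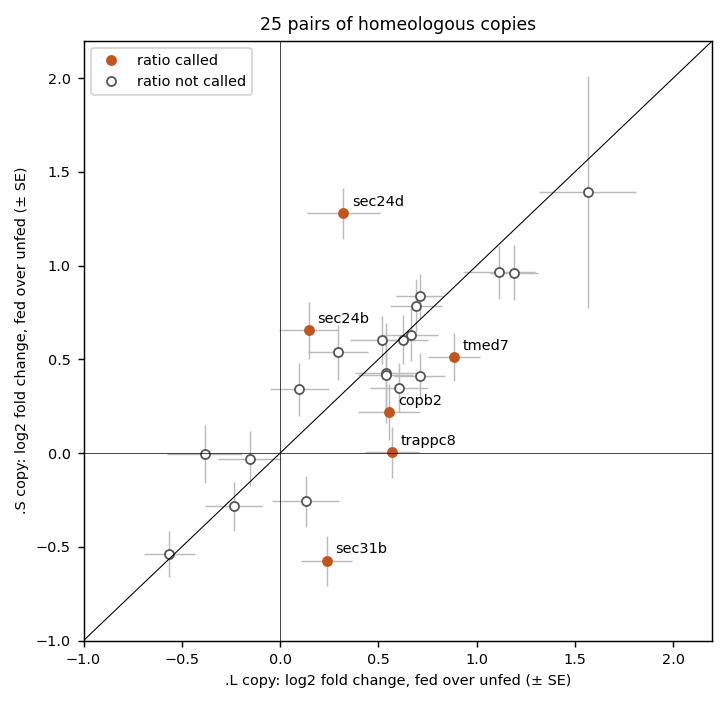
Log2 fold change of fed over unfed for the .S copy (y axis) against the .L copy (x axis) in 25 homeolog pairs with at least 1 member, with SE bars and the line of equality. Filled points are the 6 pairs whose ratio was called by limma. The sec31b and sec24d pairs lie farthest from the line, with ratio changes of 0.80 and -0.92.

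Some genes of the same families have descriptions that the rule does not match, and 23 were found by their symbol. Of these 12 were called higher and 0 lower, against 24.1% and 24.7% of all genes tested. Their median log2 fold change was 0.52. Summed, the 23 genes held 0.346% to 0.513% of counts in fed and 0.421% to 0.608% in unfed libraries, so the sum was not clearly higher with food. The search by symbol also took in Sec61 genes such as sec61a1.S. The 4 with the smallest p were tmed10l.L (1.36), trappc12.S (0.96), tmed7.L (0.88) and tmed4.S (0.84). Chosen after their values were seen, copb1.S, the homeolog of the beta gene copb1.L, was at -0.28 (adjusted p = 0.09) and arcn1.L, a delta subunit gene, at 0.42 (adjusted p = 0.0123).

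The neighbouring steps of the pathway were followed with gene lists. Of 80 tested genes for ER to Golgi transport other than the coats (Sar1, Arf and their regulators, SNAREs, cargo receptors, Golgi matrix proteins and Rabs), 56 were higher and gosr1.L was lower (-0.40), with a median of 0.61. The cargo receptor lman1.S went from 13.1 ± 1.8 CPM (SD, n = 5) without food to 36.3 ± 4.49 with food, and the SNARE genes stx5.L, stx5.S and sec22b.L were higher by 1.09 to 1.22. Of 52 tested genes for entry into the ER (signal recognition particle, its receptor, signal peptidase, oligosaccharyltransferase), 44 were higher and 0 lower, at a median of 0.80, and stt3a.S, a catalytic subunit of the oligosaccharyltransferase, stood at 213 ± 6.65 CPM with food and 75.2 ± 13.2 without. Coats of the later pathway (clathrin and its adaptors) had 16 of 35 higher and 2 lower (ap3b1.L and ap4b1.L), with a median of 0.33. Other tethering complexes (COG, exocyst, GARP and HOPS, with retromer genes in the same list) had 6 of 37 higher and 6 lower, with a median near 0. Among 29 tested regulators of secretory capacity, 8 were higher and 7 lower, shares close to the 24.1% and 24.7% over all genes. The 4 with the smallest p were the ER chaperone genes hspa5.L and hspa5.S, which rose by 2.53 and 2.60, and crebrf.L and crebrf.S, which encode a negative regulator of the CREB3 factors and fell by 3.13 and 4.09 on the log2 scale. These lists were chosen with earlier results of these data known.

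Marker lists of cell types in or near the tube were measured beside these results. Over all genes tested 24.1% were called higher and 24.7% lower, and the goblet and the smooth muscle and mesenchyme lists lay close to these shares. Of 23 tested leukocyte markers 0 were higher and 19 lower, at a median of -1.02 and a summed share of 0.0179% to 0.0252% of counts in fed and 0.0299% to 0.0807% in unfed libraries. Of 26 enteroendocrine markers 8 were higher and 2 lower (shares of 0.0469% to 0.0673% and 0.0341% to 0.0478%). Of 23 enterocyte markers 5 were higher and 3 lower (4.53% to 5.47% and 1.60% to 5.61%), and none was at 0 counts in all libraries. Of 11 tested goblet markers 3 were higher and 3 lower (0.103% to 0.149% and 0.0988% to 0.144%), with itln1.L at 0. Of 11 tested exocrine pancreas markers 0 were called (0.0115% to 0.156% and 0.0195% to 0.199%), with cela3b.L at 0. Liver markers (16 tested, 2 higher and 1 lower) held 0.0162% to 0.0315% and 0.0248% to 0.0413%, and smooth muscle and mesenchyme markers (24 tested, 5 higher and 5 lower) 0.786% to 1.58% and 0.762% to 1.29%. The part of any of these cell types in the differences of the vesicle transport genes was not tested.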

How the data were processed

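The authors deposited raw read counts per RefSeq transcript for 10 libraries, and per the submitters' processing notes HISAT2 and featureCounts were used. The sources used here give no version, genome build or strand setting, so antisense overlaps could not be separated. Among genes with several transcripts, 9859 had at least 100 counts for the highest one. Of these, 82.7% had the 2 highest within 10%, as when a read is counted for each transcript it overlaps. The transcript with the highest total stood for its gene. Rows with no name held 0.0738% of counts and stayed out. RefSeq names (assembly Xenopus_laevis_v10.1) were found for 26905 of 33656 genes, holding 93.0% of counts.

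Counts were tested with edgeR 4.0.16 (R 4.3.3): filterByExpr with a minimum count of 10, TMM scaling, robust quasi-likelihood F test, experiment as replicate block, and all groups in 1 fit for the age comparisons. The SE is the log2 fold change divided by the square root of F. Libraries of the same experiment deviated together (correlations from 0.335 to 0.523 between groups over 23787 genes), so the experiment number, given in the titles, pairs them. At 16 dpf log2 ratios used a prior count of 2. Homeolog ratios were tested with limma 3.58.1. Alternatives were DESeq2 1.42.0, other scaling, no filter, no block, the stage field as age, each experiment alone, 10 and 13 dpf alone, each library left out, counts summed over transcripts, and a transcript length trend removed. The scripts were tested on simulated data. Genes named in full were, per class, up to 6 called with the smallest p, those highest and lowest per length and those called lower, and per list up to 4 with the smallest p. The members and lists were chosen with earlier results of these data known. No sequences are shown.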

Additional observations from a re-analysis of the deposited data

Results flagged for a closer look

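In 62 groups of 5 libraries checked for a single distant value among the named members, 4 had one, where chance gives about 1 in 20 groups. The unfed 10 dpf library of experiment 1 stood apart from the other unfed libraries for trappc2.L, at 12.2 CPM against 10.997 to 11.3, and for trappc3.S, at 37.3 CPM against 25.2 to 27.8. The fed 13 dpf library of experiment 2 had 4.96 CPM of tmed6.L, and the other fed libraries had 3.80 to 3.99. The fed 16 dpf library had 199 CPM of tmed2.S, below the other fed libraries at 246 to 265.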

How the results depend on the processing

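With all ages together, the members called kept within 1.5 times of 37 higher and 4 lower under other scaling (37 and 4), no filter (34 and 3), DESeq2 (35 and 3), no replicate block (32 and 3), the stage field as age (31 and 3), counts summed over transcripts (35 and 3), the length trend removed (29 and 5), 10 and 13 dpf alone (33 and 3) and experiment 2 alone (32 and 4). Experiment 1 alone, with fewer libraries, gave 10 higher and 0 lower: 0 COPI, 5 COPII, 2 TRAPP and 3 p24 genes. TRAPP counts were 4 with no replicate block and 3 with the length trend removed. Leaving out 1 library gave 29 to 40 higher, 6 to 10 for COPI (6 without the unfed 13 dpf library of experiment 2) and 4 to 9 for TRAPP. At 10 dpf 18 became 10 with DESeq2, 6 with no replicate block, 11 with the stage field and 1 to 27 with a library left out. At 13 dpf 24 higher and 2 lower became 16 and 1 with DESeq2, 10 and 0 with no replicate block, 10 and 0 with the stage field, and 8 to 24 higher and 0 to 2 lower with a library left out. The homeolog pairs called ranged from 3 to 6, and were 5 with no replicate block. Of the named genes, trappc1.L reversed with the length trend removed at all ages (-0.083), 10 dpf (-0.031) and 13 dpf (-0.064), as did trappc3.S at 10 dpf (-0.0073). With a library left out, the 13 dpf values of copz1.L ranged from -0.11 to 0.85 and of trappc1.L from -0.21 to 0.77 (lowest without the fed 13 dpf library of experiment 2), and the 10 dpf value of copz2.L from -0.82 to 0.073 (highest without the fed 10 dpf library of experiment 2). None of these reversed values was called, and the causes were not tested. Except for each experiment alone, the share of all genes called is not given for these settings. Whether the counts of members moved with those of all genes was not tested. At 1 to 4 counts in all, 4 members could not be tested.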

Other observations

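The GTPases that start each coat were read from the list of ER to Golgi genes after their values were seen. For sar1b.L, which starts COPII assembly and serves lipoprotein export in the mammalian intestine, the mean level was 194 ± 37.4 CPM (SD, n = 5) in fed and 71.1 ± 34.7 CPM in unfed libraries, and the difference was 1.56 on the log2 scale (SE 0.20, adjusted p = 0.000102). Its paralog sar1a.S, at 82.7 ± 7.34 and 67.8 ± 5.86 CPM, was not called (0.29, adjusted p = 0.086). The Sar1 exchange factor preb.L rose by 0.93 (SE 0.12, adjusted p = 0.000141). For the GTPase of the COPI coat, arf1.L stood at 337 ± 11.1 CPM with food and 213 ± 11.3 without (0.66, SE 0.14, adjusted p = 0.00292), while its exchange factor gbf1.S was not called (0.03, SE 0.14, adjusted p = 0.881).

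Among the 63 tested members, neither the level per length nor the transcript length went closely with the feeding difference. Across genes, which are not independent replicates and share the same libraries, Pearson's r with the log2 fold change was -0.09 for the log2 level and -0.20 for the log2 length, and Spearman's rho was 0.01 and -0.23. Removing the length trend from each library still moved the medians. That of all members went from 0.51 to 0.40, COPI from 0.52 to 0.25 and TRAPP from 0.31 to 0.10. The p24 median went from 1.02 to 0.68, and the COPII median rose from 0.54 to 0.71.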
